A study of Homo sapiens with 2 samples.

Results

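The genes described here are the heat shock proteins (HSP90, HSP70 with HSP110, small heat shock proteins, HSP60 with HSP10) and the DNAJ co-chaperones of the A, B and C classes. They were picked by gene symbol from the list of transcripts, which gave 80 of 57110 gene entries and 182 listed transcripts. A total of 69 entries held counts in the matrix, 48 of them at least 100, and 11 held none in the 3 lines compared (DNAJB3, DNAJB8, HSPA7, HSPB7 and the HSP90 pseudogene entries HSP90AA4P, HSP90AA5P, HSP90AB2P, HSP90AB6P, HSP90AB7P, HSP90B2P and HSP90B3P). Of the 80, 8 are HSP90 pseudogenes whose symbols end in P without a number, and these 8 held 4 counts in all. The name rule also dropped 2 genes that are not pseudogenes, HSPBP1 and HSPBAP1.

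The cells came from 1 pool of the ovarian tumour lines COV504, IGROV1 and SK-OV-3, detached with trypsin, which the labels give in a ratio of 1:1:1. The pool was read as 2 single-cell libraries, 1 on an Illumina instrument and 1 on a nanopore PromethION, which reads long cDNA molecules. All values here are estimated counts of the PromethION library, and its 2462 barcodes are the same 2462 listed for the Illumina library. The design names the benchmarking of Isosceles, a program that finds and counts transcripts in long reads, as the purpose. The labels name no treatment and no second culture of a line, so each line counts as 1 sample and a difference between lines cannot be told apart from a difference between these cultures. There is no replicate and no test, and every interval below is a 95% interval for counting error only.

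Barcodes were given to lines by marker genes, since no label ties a barcode to a line. A barcode needed at least 1000 counts and at least 75% of its marker counts on 1 set: ERBB2, NNMT, TSPAN1 and DHRS2, or RARRES2 and TMEM100, or FOLR1, CLDN3, DEFB1 and CXCL14. This gave 648 ERBB2-high, 473 RARRES2-high and 765 FOLR1-high barcodes with medians of 4953, 6262 and 5289 counts, and left out 576. These barcodes held few marker counts, a median of 10, 11 and 8, and 85 barcodes lay between 75% and 80% and 39 between 70% and 75%. The other SK-OV-3 genes of the ERBB2 amplicon were highest in the ERBB2-high barcodes: GRB7 at 56.4 CPM (counts per 1000000 counts of the line) against 2.66 and 28.8, STARD3 at 214 against 22.2 and 13.3. CDKN2A had 1 count there, 0 in the RARRES2-high and 88 in the FOLR1-high barcodes. The IGROV1 genes split, with FOLR1, CLDN3 and PAX8 highest in the FOLR1-high and CDH1 and ESRP1 highest in the RARRES2-high barcodes, so the sets are called by their leading genes. Markers of blood, red and endothelial cells held at most 8 counts in a line, except the endothelial CDH5 with 103 counts in the RARRES2-high and 17 in the FOLR1-high barcodes. Mitochondrial transcripts took 2.93% of ERBB2-high, 3.11% of RARRES2-high and 7.07% of FOLR1-high counts, and without them the members' share of counts was 1.03%, 1.28% and 0.971%, in the same order of lines as with them. The part of CDH5 in the results was not tested.

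Heat shock proteins bind unfolded or partly folded proteins and use rounds of ATP hydrolysis to help them fold, assemble or be degraded. DNAJ proteins carry a J domain that stimulates the ATPase of HSP70 and brings it clients, and HSP70 in turn hands kinases and hormone receptors to HSP90. The factor HSF1 drives the cytosolic genes through heat shock elements, while misfolded protein in the endoplasmic reticulum (ER) raises the ER chaperones through ER stress response elements. Tumour cells, ovarian ones among them, carry high levels of many of these proteins, and HSP90 stabilises the receptor ERBB2.

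The members together held 1.00% of all counts of the ERBB2-high line (0.993 to 1.01), 1.24% of the RARRES2-high line (1.23 to 1.25) and 0.902% of the FOLR1-high line (0.894 to 0.911). By class, HSP90 genes made up 0.394%, 0.537% and 0.337% in this order of lines, and HSP70 with HSP110 genes 0.144%, 0.213% and 0.139%. HSP60 with HSP10 made up 0.128%, 0.228% and 0.187%, where the HSP10 entry also holds the transcripts of a neighbouring gene. DNAJA genes made up 0.0374%, 0.0792% and 0.0352%, and DNAJB genes 0.0423%, 0.0392% and 0.0289%, lowest in FOLR1-high, with intervals that overlap between the other lines. The RARRES2-high line thus had the largest shares for HSP90, for HSP70 with HSP110, for DNAJA and for the joint HSP60 and HSP10 class, the last through the HSP10 entry, since HSP60 itself was highest in FOLR1-high. HSPB11, a part of ciliary transport, counts among the small heat shock proteins, with 494 of 2208, 306 of 1056 and 317 of 1724 counts. This class made up 0.0641%, 0.0313% and 0.0382%, lowest in RARRES2-high. DNAJC genes made up 0.195%, 0.115% and 0.137%, also lowest there, but this order rested on DNAJC15: without it, a choice made after seeing the data, the shares were 0.138%, 0.115% and 0.114%. Without the DNAJC14 entry as well, which is mostly another gene's counts, they were 0.122%, 0.104% and 0.0971%.

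**Figure D1:**
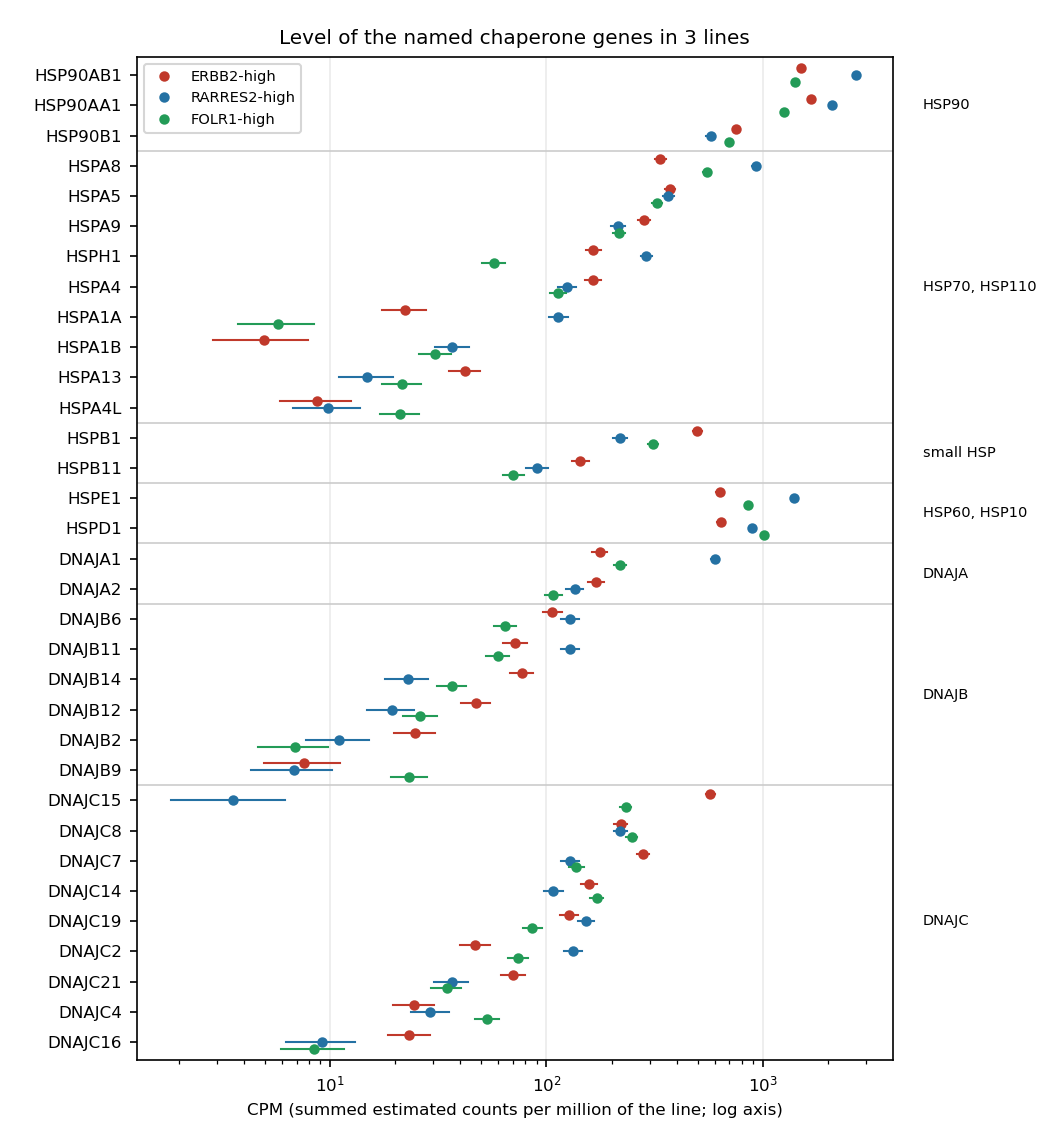
The plot of levels shows, for the 33 named members, the CPM in each line on a log axis with the 95% counting interval as a bar; colours stand for the 3 lines and the members are grouped by class. The widest gap is that of DNAJC15, which lay at 3.55 CPM in the RARRES2-high line and at 573 and 232 CPM in the ERBB2-high and FOLR1-high lines.

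Entries with at least 100 counts over a pair of lines were compared by their CPM ratio, and a ratio of 2 or more was called. In either direction 31.4%, 32.8% and 32.3% of all entries were called in the 3 pairs (ERBB2-high against RARRES2-high, ERBB2-high against FOLR1-high, RARRES2-high against FOLR1-high), beside 14 of 43, 13 of 46 and 8 of 44 members. Of 46 members that could be compared in at least 1 pair, 22 were called at least once, as were 4159 of 7852 entries of all genes. Between ERBB2-high and RARRES2-high, 8 of 43 members were higher in ERBB2-high, where 19.1% of all entries were, and 6 were higher in RARRES2-high, where 12.3% were. Between ERBB2-high and FOLR1-high, 9 of 46 members were higher in ERBB2-high, beside 24.1% of all entries, and 4 in FOLR1-high, beside 8.73%. The 9 include HSPA1A and the 4 its near-identical copy HSPA1B, and the summed pair was not past 2-fold between these lines (1.34-fold higher in FOLR1-high). Between RARRES2-high and FOLR1-high, 5 of 44 were higher in RARRES2-high, beside 20.8%, and 3 in FOLR1-high, beside 11.4%. The members' own percentages were 18.6% and 14.0% in the first pair, 19.6% and 8.70% in the second and 11.4% and 6.82% in the last. They were thus close to or below those of all entries, and whether they differ from them was not tested.

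Ratios of all entries were not centred on 1: their median log2 ratio was 0.18 for ERBB2-high over RARRES2-high, 0.43 for ERBB2-high over FOLR1-high and 0.20 for RARRES2-high over FOLR1-high. The medians over the members were 0.32, 0.39 and 0.06. With ratios divided by the all-gene median, the splits became 6 and 8 (beside 14.5% and 15.5% of all entries), 4 and 8 (12.7% and 15.0%) and 3 and 5 (16.0% and 14.6%). In either direction these were 14, 12 and 8 members, beside 30.0%, 27.7% and 30.7% of all entries. Of the 22 members, 18 were called under both scalings, and DNAJC7, DNAJB6, HSPB11 and DNAJC21 were called on the CPM scale alone. HSP90AB1, HSPD1 and HSPA2 were called under median scaling alone.

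**Figure D2:**
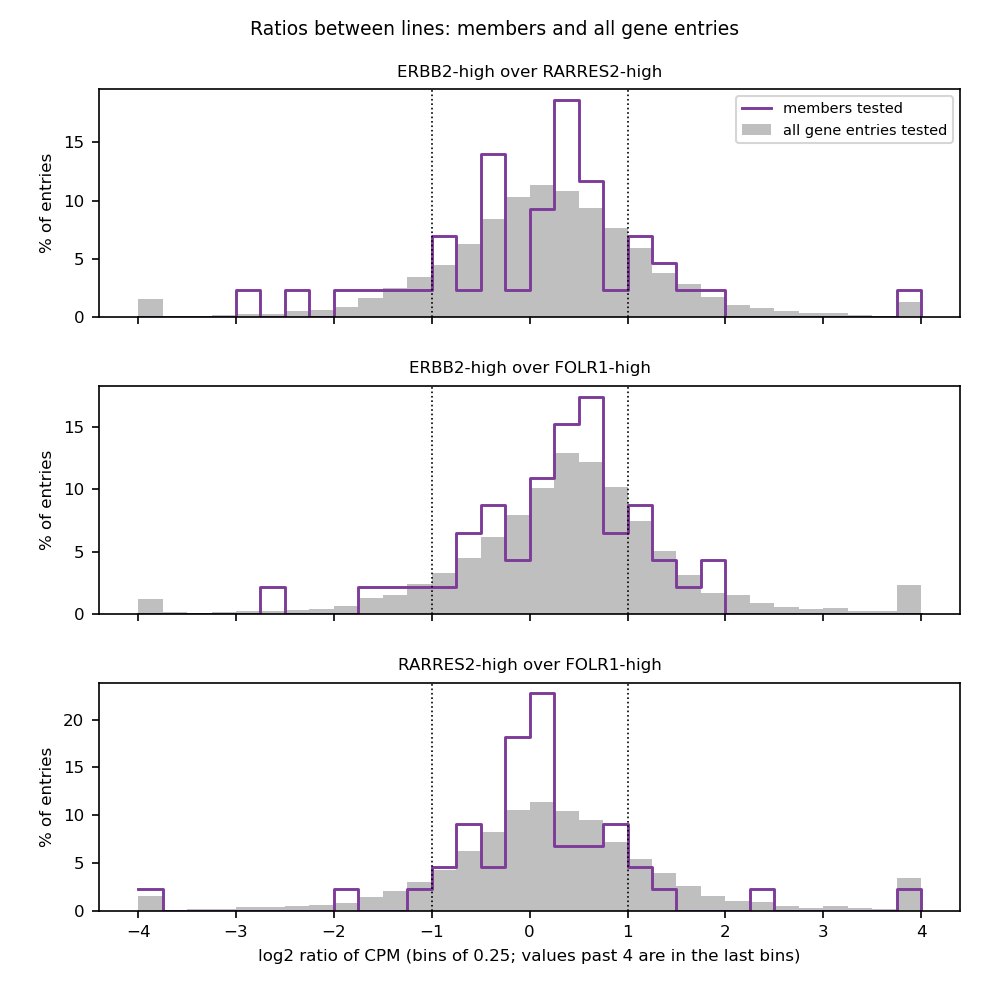
The plot of ratios gives, for each pair of lines, the percentage of entries (vertical axis) by log2 CPM ratio in bins of 0.25 (horizontal axis), with all tested entries as grey bars, the tested members as a purple outline and dotted lines at the 2-fold limits. Most members lie between the dotted lines, with between 3 and 9 members past either limit in a pair.

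HSP90AB1, the constitutive cytosolic HSP90 (chr6:44246166-44253888, + strand), was at 1502 CPM (1462 to 1544) in the ERBB2-high, 2705 (2650 to 2761) in the RARRES2-high and 1417 (1383 to 1452) in the FOLR1-high line. The RARRES2-high line was 1.80-fold (1.74 to 1.86) above ERBB2-high and 1.91-fold (1.85 to 1.97) above FOLR1-high, short of the 2-fold limit, and the first of these was 2.05-fold after median scaling. HSP90AA1, the stress-inducible cytosolic HSP90 (chr14:102080738-102139686, - strand), was at 1679, 2086 and 1248 CPM. Its highest level was again in the RARRES2-high line, 1.24-fold above ERBB2-high and 1.67-fold above FOLR1-high. The balance of the pair differed between lines: HSP90AB1 had 0.895 counts per HSP90AA1 count (0.862 to 0.929) in ERBB2-high, 1.30 (1.26 to 1.34) in RARRES2-high and 1.14 (1.10 to 1.18) in FOLR1-high barcodes. These intervals do not overlap, and counting error is the only error they hold. HSP90B1, the HSP90 of the ER, was at 754, 574 and 702 CPM, lowest in the RARRES2-high line where its cytosolic relatives were highest.

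The stretch before the RefSeq start of these genes is shown because a heat shock element was found there in members from several classes. The search took the 250 bases before each start in RefSeq's promoter records (GRCh38.p14), which matched 63 of the 80 symbols with 82 records. That start is not always the start of the transcript that took most counts here. The long element GAANNTTC followed by NNGAA (N is any base), read on both strands, stood in 155 of all 35116 records (0.441%) and in 6 member records: DNAJB6, HSP90AA1, HSP90AB1, HSPA6, HSPA8 and HSPD1. The shorter element GAANNTTC, which the long one contains, stood in 5.78% of all records and in 16 member records, those of HSPA1A, HSPA1B, DNAJA1, DNAJB1 and HSPB1 among them. Capitals mark the long element. HSP90AB1 (chr6:44247743-44247865, + strand) and DNAJB6 (chr7:157336804-157336965, + strand) are printed as stretches free of the gene's own exons, and HSPA8 (chr11:123062170-123062199, - strand) and HSP90AA1 (chr14:102087111-102087140, - strand) as 30 bases around the match nearest to the start.
HSP90AB1: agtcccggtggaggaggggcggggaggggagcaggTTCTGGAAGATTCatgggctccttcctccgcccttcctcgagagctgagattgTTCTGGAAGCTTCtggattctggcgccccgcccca
DNAJB6: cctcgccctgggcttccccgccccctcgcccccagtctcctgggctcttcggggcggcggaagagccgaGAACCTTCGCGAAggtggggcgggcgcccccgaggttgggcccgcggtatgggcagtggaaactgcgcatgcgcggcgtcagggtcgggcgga
HSPA8: cgggccccTTCTGGAAGGTTCtaagatagg
HSP90AA1: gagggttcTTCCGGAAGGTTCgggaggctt
HSP90AB1 held 2 matches, 165 and 112 bases before its RefSeq start, but its transcript ENST00000371646, with 97.9% to 98.4% of counts, starts upstream of the printed stretch, at base 44247087, so the stretch lies inside the gene as counted here. HSPA8 held 2 matches, of which the printed one begins 55 bases before the RefSeq start. The other, not printed, begins 230 bases before it, upstream of the HSPA8 gene as counted here (from base 123062335). The 30 bases printed for HSPA8 and for HSP90AA1 lie wholly in the genes' own exons, downstream of the starts of ENST00000534624 (base 123062335) and ENST00000216281 (base 102087191). A match is only a run of letters. HSPA6, an inducible HSP70 whose record also held the element, had 1 count in the whole matrix.

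HSPA8, the constitutive cytosolic HSP70 (chr11:123057489-123062335, - strand), was at 337 CPM (318 to 357) in the ERBB2-high, 929 (896 to 962) in the RARRES2-high and 553 (531 to 575) in the FOLR1-high line. The RARRES2-high level was 2.76-fold (2.58 to 2.95) that of ERBB2-high and 1.68-fold that of FOLR1-high. Over barcodes the median HSPA8 level was 236, 816 and 456 CPM, and 32.6%, 9.94% and 17.1% of barcodes had no HSPA8 count. Single barcodes reached from 0 to 2581, 4720 and 2348 CPM in the 3 lines, so they overlapped while their medians differed.

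HSPH1, the HSP110 that releases nucleotide from HSP70 (chr13:31134974-31162388, - strand), was at 165 CPM (152 to 179) in ERBB2-high, 290 (272 to 309) in RARRES2-high and 57.1 (50.4 to 64.6) in FOLR1-high. RARRES2-high was 5.08-fold (4.42 to 5.85) and ERBB2-high 2.89-fold (2.49 to 3.36) above FOLR1-high, or 4.41-fold and 2.14-fold after median scaling. No HSPH1 count was found in 76.2% of FOLR1-high barcodes, against 26.8% of RARRES2-high and 50.5% of ERBB2-high ones, at the differing depths of these barcodes.

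The stress-inducible pair HSPA1A and HSPA1B, neighbours on chromosome 6 (chr6:31815464-31817946 and chr6:31827735-31830255), encode nearly the same HSP70: their coding sequences of 1923 bases differ at 4 positions in GENCODE 29. HSPA1A was at 22.1, 114 and 5.76 CPM and HSPA1B at 4.94, 36.7 and 30.6 CPM in ERBB2-high, RARRES2-high and FOLR1-high barcodes. Because reads of such copies can be placed on either, each gene alone is uncertain and the sum is the safer value. Summed, the pair was at 27.02 CPM (21.8 to 33.1), 150 (138 to 164) and 36.3 (31.0 to 42.3), so that RARRES2-high was 5.57-fold (4.45 to 7.02) above ERBB2-high and 4.14-fold (3.47 to 4.97) above FOLR1-high. HSPA1A took 81.7% of the summed counts in ERBB2-high, 75.6% in RARRES2-high and 15.9% in FOLR1-high. The copy that took most of the reads thus differed between FOLR1-high and the other lines.

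HSPA5, the HSP70 of the ER also known as BiP (chr9:125234853-125241330, - strand), was at 372, 366 and 324 CPM and HSPA9, the mitochondrial HSP70, at 283, 214 and 217 CPM. Neither was called in any pair. HSPA4, a relative of HSPH1, was at 165, 124 and 113 CPM, also without a call. HSPA13, an HSP70-like protein of microsomes, was 2.85-fold (2.05 to 4.01) higher in ERBB2-high than in RARRES2-high, at 42.1 against 14.8 CPM. HSPA4L was highest in FOLR1-high at 21.0 CPM, 2.41-fold above ERBB2-high and 2.15-fold above RARRES2-high. HSPA2, known for its role in testis, was at 8.71, 8.88 and 17.3 CPM.

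HSPD1 (HSP60) and HSPE1 (HSP10) form the folding chamber of mitochondria and lie head to head on chromosome 2, with 105 bases between their RefSeq starts. The transcripts that took most counts overlap there: ENST00000233893 of HSPE1 (81.3%, 93.9% and 90.7% of its entry) starts at base 197499994 on the + strand and ENST00000388968 of HSPD1 (95.6%, 97.4% and 98.4%) at base 197500047 on the - strand. HSPD1 was at 639 CPM (612 to 666), 893 (862 to 926) and 1018 (989 to 1048) in the ERBB2-high, RARRES2-high and FOLR1-high lines, highest in FOLR1-high. The HSPE1 entry was at 637, 1390 and 852 CPM, highest in RARRES2-high, 2.18-fold (2.07 to 2.30) above ERBB2-high. That entry joins HSPE1 with MOB4, whose transcripts took 18.2%, 5.96% and 8.92% of it. HSPE1's own transcripts were at 521, 1307 and 776 CPM, 2.51-fold apart between RARRES2-high and ERBB2-high. The 2 genes of the shared start region therefore did not follow the same order of lines.

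HSPB1 (HSP27), a small heat shock protein that holds unfolding proteins without using ATP, was at 497 CPM (474 to 521), 219 (203 to 235) and 311 (294 to 327). Its level in ERBB2-high was 2.27-fold (2.08 to 2.48) that in RARRES2-high, still 2-fold after median scaling, and 1.60-fold that in FOLR1-high. HSPB11, which carries a heat shock name but is a part of the ciliary transport machinery, was at 144, 90.6 and 70.2 CPM and 2.04-fold higher in ERBB2-high than in FOLR1-high, a call lost after median scaling (1.51-fold). The other small members were scarce. HSPB8 had 9 counts and HSPB6 had 6 over all barcodes.

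DNAJA1, the main farnesylated J protein of the cytosol and a partner of HSPA8 (chr9:33025211-33039907, + strand), was at 176 CPM (163 to 191) in ERBB2-high, 604 (578 to 631) in RARRES2-high and 220 (206 to 234) in FOLR1-high. The RARRES2-high level was 3.43-fold (3.13 to 3.76) and 2.75-fold (2.55 to 2.97) above the others, and it was called under both scalings in both pairs. Its relative DNAJA2 was at 169, 135 and 108 CPM, highest in ERBB2-high, with no call. DNAJA3, a mitochondrial J protein, was at 27.6, 42.6 and 21.7 CPM.

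Among the DNAJB genes, DNAJB1 (HSP40), a classical heat-inducible J protein, was at 72.9, 64.5 and 61.8 CPM and was called in no pair. DNAJB11, a soluble J protein of the ER, was at 71.8, 129 and 59.6 CPM, 2.16-fold (1.85 to 2.53) higher in RARRES2-high than in FOLR1-high (1.88-fold after median scaling) and 1.79-fold higher than in ERBB2-high (2.04-fold after median scaling). DNAJB9, another ER J protein and an HSPA5 co-chaperone, was at 7.55, 6.81 and 23.3 CPM, 3.08-fold (1.99 to 4.93) and 3.42-fold (2.16 to 5.62) higher in FOLR1-high than in ERBB2-high and RARRES2-high. The membrane-bound ER proteins DNAJB12 and DNAJB14 were highest in ERBB2-high. DNAJB14 was at 77.0, 22.8 and 36.5 CPM, 3.38-fold (2.61 to 4.41) above RARRES2-high, and DNAJB12 at 47.1, 19.2 and 26.1 CPM, 2.45-fold above it. DNAJB2, a J protein that passes clients to the proteasome, was at 24.7, 11.0 and 6.87 CPM, 3.60-fold (2.36 to 5.62) higher in ERBB2-high than in FOLR1-high.

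DNAJB6, which keeps polyglutamine proteins from aggregating, was at 107, 129 and 64.5 CPM, and the 2-fold difference between RARRES2-high and FOLR1-high (1.72 to 2.33) was 1.74-fold after median scaling. It also differed in its transcripts. The gene (chr7:157336966-157417439, + strand) is read into a short coding transcript (ENST00000429029, 8 exons, 723 coding bases), whose protein lies in cytosol and nucleus, and a long one (ENST00000262177, 10 exons, 978 coding bases), whose protein is nuclear. The long transcript took 23.9% of DNAJB6 counts (19.7 to 28.7) in ERBB2-high, 23.6% (19.7 to 27.9) in RARRES2-high and 8.51% (5.64 to 12.4) in FOLR1-high barcodes. The first pair of lines overlapped and FOLR1-high lay 15.3 and 15.1 points below them. Between 78.4% and 85.2% of DNAJB6 counts were whole numbers on 1 transcript, and on those alone the long transcript took 21.6%, 20.8% and 6.85%. The coding ends that separate the transcripts are shown because these letters decide which form a read supports: the short form reads on past the shared exon for 32 bases (chr7:157385612-157385643), and the long form joins 2 further coding exons, of 207 and 80 coding bases (chr7:157409795-157410001 and chr7:157416016-157416095, from GENCODE 29 on GRCh38).
DNAJB6 short form: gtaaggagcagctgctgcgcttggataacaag
DNAJB6 long form, first added exon: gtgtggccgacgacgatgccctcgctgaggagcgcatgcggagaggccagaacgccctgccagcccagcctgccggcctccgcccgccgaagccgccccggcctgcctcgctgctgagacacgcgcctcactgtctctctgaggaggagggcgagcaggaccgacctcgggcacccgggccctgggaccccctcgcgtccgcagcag
DNAJB6 long form, second added exon: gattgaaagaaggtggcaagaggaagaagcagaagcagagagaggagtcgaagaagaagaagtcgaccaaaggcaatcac

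DNAJC15 showed the widest difference of the members with enough counts to compare. It is a J protein of the inner mitochondrial membrane that binds the import motor and respiratory complex I, and it is known under the name MCJ as a gene lost by promoter methylation in part of ovarian carcinomas. DNA methylation was not measured here. The gene (chr13:43023203-43114224, + strand) had 1973 counts in ERBB2-high, 12 in RARRES2-high and 1048 in FOLR1-high barcodes, or 573 CPM (548 to 599), 3.55 (1.84 to 6.21) and 232 (218 to 247). ERBB2-high was 161-fold (92.2 to 313) and FOLR1-high 65.3-fold (37.2 to 127) above RARRES2-high. As a mean of the barcodes' own shares, in place of summed counts, the first ratio was 75.5 and RARRES2-high was at 0.0339 of FOLR1-high. ERBB2-high was 2.47-fold (2.29 to 2.66) above FOLR1-high, or 1.83-fold after median scaling. A DNAJC15 count was present in 89.2% of ERBB2-high, 63.1% of FOLR1-high and 1.27% of RARRES2-high barcodes, and, with every barcode thinned to 2000 counts, in 68.5%, 34.8% and 0.226%. The 12 counts of the RARRES2-high line came from 6 of its 473 barcodes, and Scrublet marked 4 of those 6 as doublets. Their markers were mixed in part: 3 of the 6 had under 90% of the marker counts on RARRES2 and TMEM100. One transcript is listed for the gene, with 6 exons and 450 coding bases, so no transcript share could be compared.

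**Figure D3:**
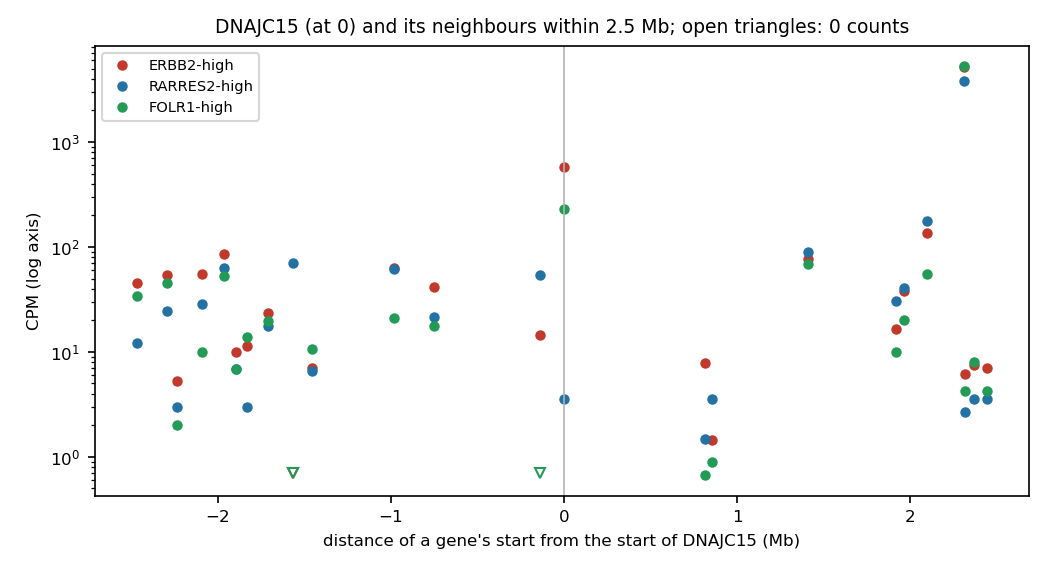
The plot of neighbours gives the CPM (log axis) of DNAJC15, at distance 0, and of the 23 gene entries with at least 20 counts within 2.5 Mb of it on chromosome 13. There is 1 point for each line, with open triangles for 0 counts. Distances run between the lowest bases of the entries, whatever their strand. DNAJC15 has a RARRES2-high point far below its other points, while the nearest neighbour, drawn at 137 kb by its lowest base, has its highest point in RARRES2-high.

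Of the 23 neighbours, 10 were lowest in RARRES2-high. The RARRES2-high to ERBB2-high ratio of the 22 neighbours with ERBB2-high counts had a median of 0.714 and ran from 0.189 to 3.73, against 0.0062 for DNAJC15. That ratio cannot be given for RGCC, which had 237 counts in RARRES2-high (70.2 CPM) and 0 in both other lines. The median ratio over all tested entries was 0.880. EPSTI1, the nearest neighbour, was at 14.5 CPM in ERBB2-high and 54.2 in RARRES2-high, with 0 counts in FOLR1-high.

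Other DNAJC genes differed less. DNAJC7, a J protein with tetratricopeptide repeats that binds both HSP70 and HSP90, was at 279 CPM (262 to 298), 129 (117 to 142) and 137 (127 to 149), 2.17-fold and 2.04-fold higher in ERBB2-high than in RARRES2-high and FOLR1-high. Both calls were lost after median scaling, at 1.91-fold and 1.51-fold. DNAJC2, a J protein that sits on the ribosome, was at 46.8, 133 and 74.2 CPM, 2.85-fold (2.37 to 3.43) higher in RARRES2-high than in ERBB2-high. DNAJC21, a ribosome biogenesis factor, was at 70.0, 36.4 and 34.6 CPM and DNAJC16 at 23.2, 9.18 and 8.42 CPM, both highest in ERBB2-high. DNAJC4 was highest in FOLR1-high at 53.2 CPM against 24.4 in ERBB2-high and 29.01 in RARRES2-high. DNAJC8, a splicing-associated protein, was at 220, 220 and 249 CPM, and DNAJC19, a mitochondrial import and cardiolipin factor, at 127, 153 and 85.9 CPM, neither called. The DNAJC14 entry, at 157, 108 and 171 CPM, was mostly its neighbour SARNP: transcripts of DNAJC14 itself took 4.34%, 5.22% and 2.82% of it, or 6.83, 5.62 and 4.82 CPM.

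Transcript shares were compared for members of a single-gene entry with at least 2 transcripts and 100 counts in both lines of a pair. None of 20 members reached a difference of 20 points, the level called, while 2.37%, 1.86% and 3.0% of all entries did in the 3 pairs. The largest difference of a member had a median of 1.20, 1.49 and 1.49 points, against 2.78, 2.81 and 3.02 over all entries. DNAJB6, HSPA8 and HSPH1 passed 10 points. HSPA8's transcript ENST00000534624 took 61.6% (58.6 to 64.3), 76.4% (74.9 to 77.9) and 72.1% (70.3 to 73.8) of its counts in ERBB2-high, RARRES2-high and FOLR1-high. HSPH1's ENST00000320027 took 40.5% (36.4 to 44.7), 52.8% (49.7 to 56.02) and 36.8% (30.9 to 43.0). Only 0.733% to 5.95% of HSPA8 and 4.26% to 4.93% of HSPH1 counts were whole on 1 transcript, so these shares rest on the authors' division of reads between overlapping transcripts. On whole estimates alone ENST00000534624 took 78.3%, 82.6% and 85.6%, so FOLR1-high was then above RARRES2-high, and ENST00000320027 took 32.1%, 38.6% and 27.3%. The whole counts on the transcript itself were 54, 19 and 77 for ENST00000534624 and 9, 17 and 3 for ENST00000320027.

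One HSPH1 transcript, ENST00000380405, lacks an exon of 132 coding bases, exon 12 of ENST00000320027 (chr13:31143792-31143923, - strand), and took 18.3% (15.2 to 21.7), 10.7% (8.85 to 12.8) and 19.6% (15.1 to 25.2). The exon is printed since its length is a multiple of 3 and both transcripts keep the reading frame.
HSPH1 exon: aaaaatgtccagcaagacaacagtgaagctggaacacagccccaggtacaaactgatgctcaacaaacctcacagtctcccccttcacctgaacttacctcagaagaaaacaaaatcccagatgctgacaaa
The remaining members with the largest differences stayed under 10 points. DNAJC2's ENST00000379263 took 79.7%, 89.2% and 83.5%, HSPA4's ENST00000304858 92.5%, 91.4% and 86.9%, and DNAJB12's ENST00000338820 15.6%, 11.3% and 8.76%. DNAJB1's ENST00000254322 took 96.8%, 98.8% and 94.7%, and DNAJC19's ENST00000486355 took 1.37%, 3.88% and 4.73%. On whole estimates alone DNAJC2's transcript took 89.0%, 88.8% and 89.6%, so its gap between lines was gone. HSPA4's took 97.8%, 98.3% and 94.7%, with RARRES2-high then above ERBB2-high. DNAJB12's took 36.1%, 21.4% and 16.7%, where the transcript itself held 13, 3 and 4 whole counts.

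**Figure D4:**
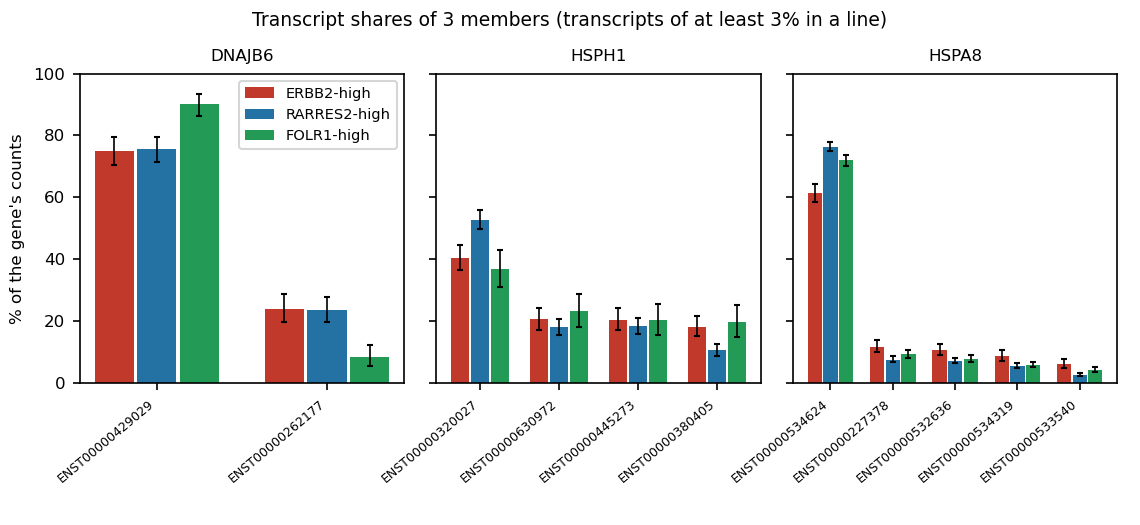
The plot of transcript shares gives the percentage of a gene's counts on each transcript that reached 3% in a line, for DNAJB6, HSPH1 and HSPA8; bars are coloured by line and black bars are 95% counting intervals. The long DNAJB6 transcript ENST00000262177 is near 24% in ERBB2-high and RARRES2-high and at 8.51% in FOLR1-high.

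To compare barcodes within a line, each was thinned to 2000 counts, which kept 606 ERBB2-high, 443 RARRES2-high and 733 FOLR1-high barcodes and left out 42, 30 and 32. The Fano factor, the variance over the mean, is 1 for pure counting noise. It reached 1.5 for 2 of 26 members with a thinned mean of at least 0.1 in ERBB2-high, 7 of 25 in RARRES2-high and 4 of 25 in FOLR1-high, and for 4.38%, 5.88% and 5.31% of all entries. In ERBB2-high they were HSP90AA1 (1.51) and HSPA8 (1.51). In RARRES2-high they were HSP90AB1 (2.12), HSP90AA1 (2.0), HSPE1 (1.68), HSP90B1 (1.55), HSPA5 (1.53), HSPD1 (1.53) and HSPA8 (1.51). HSPA5 fell under 1.5 there without the barcodes that the doublet caller Scrublet marked (1.35) or without its highest barcode (1.39). In FOLR1-high they were HSPA5 (3.20), HSP90B1 (2.57), HSP90AA1 (1.85) and HSP90AB1 (1.60). Members and all entries were not matched by level, and the 7 members named in RARRES2-high had thinned means from 0.842 (HSPA5) to 5.60 (HSP90AB1). The median Fano factor of the members was 1.061 in ERBB2-high, 1.112 in RARRES2-high and 1.096 in FOLR1-high. That of all entries was 1.041, 1.059 and 1.049 in the same order. The part of level in the counts of members past 1.5 was not tested.

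The ER pair HSPA5 and HSP90B1 had a long tail in FOLR1-high. HSPA5 had a thinned mean of 0.599 there and a count in 36.3% of barcodes, while 9 of 733 had at least 5 and 1 had 24. That barcode also had 24 HSP90B1 counts and was marked as a doublet by Scrublet. Without it the HSPA5 Fano factor was 2.06, and without all marked barcodes 1.94, so 1 barcode carried much of the excess. With barcodes thinned to 3000 counts in place of 2000 it was 2.04. That setting leaves out barcodes with under 3000 counts, so it is not a separate check on the same barcodes. HSP90B1 kept a factor of 1.98 without the marked barcodes. In ERBB2-high no barcode reached 5 HSPA5 counts, the highest being 4, and the Fano factor was 1.02. Of the 9 FOLR1-high barcodes, 6 also had at least 5 HSP90B1 counts, and their mean HSP90B1 count was 10.2 against 1.33 in the rest. Their means were 2.89 against 0.945 for the ER chaperone CALR and 1.33 against 0.0912 for DDIT3 (CHOP), a stress transcription factor. Chaperones outside the ER were at 5.22 against 2.53 for HSP90AA1, 3.33 against 2.87 for HSP90AB1 and 2.56 against 1.95 for the mitochondrial HSPD1. HSPA8 was at 1.11 against 1.05, and the HSPE1 entry was lower, at 1.56 against 1.72. These 9 barcodes had a median of 8525 counts before thinning against 5408 in the rest and 4.97% against 7.06% mitochondrial counts, and Scrublet marked 2 of them; the part of depth and doublets was not tested.

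**Figure D5:**
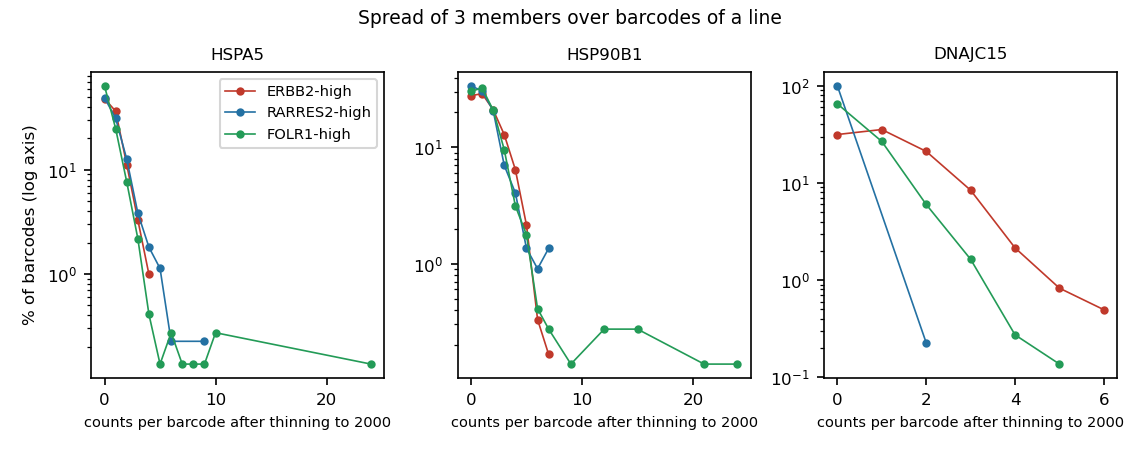
The plot over barcodes gives, for HSPA5, HSP90B1 and DNAJC15, the percentage of a line's barcodes (log axis) at each count per barcode after thinning to 2000. HSPA5 and HSP90B1 reach 24 counts in FOLR1-high alone of these lines, and DNAJC15 has a count in 1 of 443 RARRES2-high barcodes.

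Over the 733 FOLR1-high barcodes, which share the library and the thinned depth, HSPA5 and HSP90B1 had a Pearson correlation of 0.500, and 0.332 without the 2 barcodes with the most HSPA5 counts. HSP90B1 ranked first of the 2468 entries compared with HSPA5. In RARRES2-high the same correlation was 0.159, and 0.180 without the 2 highest barcodes, with HSP90B1 at rank 22 of 2942 entries. In ERBB2-high it was 0.045, at rank 428 of 3219. For the cytosolic pair HSP90AA1 and HSP90AB1 it was 0.336 in RARRES2-high, the first of 2942 entries, 0.131 in FOLR1-high and 0.096 in ERBB2-high.

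An ER stress response element, CCAAT, 9 bases of any kind and then CCACG, on either strand, stood before the RefSeq starts of the HSPA5 and HSP90B1 pair and of no other member with a record. It was found in 26 of the 35116 promoter records (0.074%). HSPA5 (chr9:125241344-125241493, - strand) held 1 match, 66 bases before its start. HSP90B1 held 2, and the 30 bases around the one nearest to the start, which begins 89 bases before it on the other strand, are shown (chr12:103930316-103930345, + strand), with capitals for the element. All 30 lie in exons that GENCODE gives to HSP90B1, but the HSP90B1 transcripts counted here start at base 103930334 or later, so the first part of the stretch lies before them, while the HSPA5 stretch holds none of its own exons.
HSPA5: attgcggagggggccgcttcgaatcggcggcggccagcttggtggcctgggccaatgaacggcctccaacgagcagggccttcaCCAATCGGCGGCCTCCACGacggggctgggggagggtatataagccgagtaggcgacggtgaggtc
HSP90B1: gggtgCGTGGTGCGGCGCGATTGGtgggtt

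Of 47 genes that work with these chaperones (nucleotide exchange factors, HSP90 co-chaperones, the CCT chaperonin, ER folding enzymes and stress factors), 46 could be compared and 20 were called in at least 1 pair, 16 of them under both scalings. Between ERBB2-high and RARRES2-high, 8 of 46 were higher in ERBB2-high and 5 in RARRES2-high. Between ERBB2-high and FOLR1-high, 4 of 45 were called in each direction, and between RARRES2-high and FOLR1-high 6 of 46 were higher in RARRES2-high and 4 in FOLR1-high. As percentages these were 17.4% and 10.9%, 8.89% and 8.89%, and 13.04% and 8.70%, beside 19.1% and 12.3%, 24.1% and 8.73%, and 20.8% and 11.4% of all entries. After median scaling the splits were 6 and 7, 2 and 6, and 3 and 5. Of all entries, 14.5% and 15.5%, 12.7% and 15.0%, and 16.0% and 14.6% were then called.

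Among the HSP90 co-chaperones that were called, STIP1, FKBP4, FKBP5 and CDC37 were highest in RARRES2-high and PPID in FOLR1-high, at 66.8, 37.3 and 80.6 CPM. STIP1 (HOP), which links HSP70 to HSP90, was at 138, 357 and 126 CPM, FKBP4 at 39.2, 126 and 67.3 CPM, and FKBP5 at 10.7, 22.2 and 7.09 CPM. CDC37, which brings kinases to HSP90, was at 127, 217 and 106 CPM, and its call against FOLR1-high was lost after median scaling. STUB1 (CHIP), a ubiquitin ligase that binds HSP70 and HSP90, was at 76.7, 119 and 50.7 CPM and was called in RARRES2-high against FOLR1-high under both scalings. PTGES3 (p23), at 631, 605 and 448 CPM, and AHSA1, an activator of the HSP90 ATPase, at 81.3, 106 and 118 CPM, were not called. Among the BAG exchange factors, BAG5 was highest in ERBB2-high at 146 CPM against 53.0 and 30.8, BAG2 was highest in FOLR1-high at 85.5 CPM against 42.1 and 40.6, and BAG3 was at 65.9, 55.4 and 26.4 CPM, with both of its calls lost after median scaling. HSF1 itself was at 56.6, 68.7 and 34.8 CPM and was not called. HSF2 was at 30.5, 11.2 and 14.2 CPM.

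Genes of the ER and of its stress response shared no order of lines. DDIT3 was at 367 CPM in ERBB2-high against 56.8 and 64.0, and ATF4, the factor that induces it, at 451, 137 and 280 CPM. XBP1, whose spliced form drives ER chaperone genes, was at 98.8 CPM in ERBB2-high and 81.1 in FOLR1-high, with 1 count in RARRES2-high. HSPA5 itself differed by less than 1.15-fold between lines (372 CPM in ERBB2-high, 366 in RARRES2-high and 324 in FOLR1-high). PDIA4 was at 56.6, 148 and 149 CPM and SDF2L1 at 65.7, 104 and 160 CPM, both lowest in ERBB2-high. The ER folding genes CALR (597, 469 and 493 CPM), CANX (269, 241 and 181), PDIA3 (257, 306 and 241), PDIA6 (374, 418 and 430) and HYOU1 (23.2, 18.7 and 21.7) were not called. Of the CCT chaperonin, CCT6A was called, at 188, 493 and 410 CPM.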

How the data were processed

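One pool of 3 ovarian tumour lines was read as 1 PromethION library and 1 Illumina library. The authors deposited estimated counts per transcript and barcode, which need not be whole (39.8% of entries were, within 1e-06), and the series' design text names Isosceles. The submitters' processing notes name Cell Ranger 6.0.1 and GRCh38. For other tools, and the handling of molecular identifiers: not given in the sources used here.

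Estimated counts were summed per gene entry and line, rounded for intervals and thinning, and scaled to CPM. Transcript models were matched to GENCODE 29, with 178 of 182 member transcripts at the same ends. Lines were called from markers, and ratios carry conditional binomial, levels exact Poisson and shares exact Clopper-Pearson 95% intervals. Line totals were 3442383 (ERBB2-high), 3377992 (RARRES2-high) and 4514999 (FOLR1-high) counts. On these totals 3 counts, about the 1-sided 95% limit for a count of 0, equal 0.871, 0.888 and 0.664 CPM. The 2-sided exact Poisson intervals of a count of 0 reach 1.07, 1.09 and 0.817 CPM. Doublets were marked with Scrublet (expected rate 0.02, 77 barcodes marked, 3.13%) and kept; alternatives left them out. Of the 576 barcodes outside the lines, 333 had under 1000 counts, 35 no marker count and 208 mixed markers. The members and gene lists were chosen with earlier results of these data known. Named were members with at least 100 CPM in a line, those past 2-fold in a pair, the 8 with the largest transcript share differences and those at 0. Alternatives were other marker, count and fold limits, median scaling, per-barcode means and other thinning depths. The scripts were tested on simulated data. Python 3.11.15, numpy 2.4.6, scipy 1.17.1, pandas 2.3.3, scanpy 1.11.5 and matplotlib 3.10.9 were used.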

Additional observations from a re-analysis of the deposited data

Results flagged for a closer look

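Barcodes under 1000 counts, which entered no comparison, still carried the members. They gave 0.777% of their 110420 counts to the members (0.726 to 0.831, exact 95% interval for counting error), below the share in each of the 3 lines. In these 333 barcodes 27.4% of counts were mitochondrial, and 147 of them were mostly mitochondrial. The shares compared here keep mitochondrial counts in the totals, and no share without them was taken for these barcodes. The part of mitochondrial counts in the lower share was not tested.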

How the results depend on the processing

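No CPM ratio of a called member changed direction. With median scaling the balance of members called higher and lower turned in all 3 pairs, and on whole estimates the order of lines changed for the HSPA8, HSPA4 and DNAJC2 transcripts; these values stand beside the results. The members' share of counts moved beyond its counting interval in some settings. Without mitochondrial counts it was 1.03% (ERBB2-high), 1.28% (RARRES2-high) and 0.971% (FOLR1-high). Without entries of several genes it was 0.915%, 1.08% and 0.792%. With member transcripts of GENCODE alone, a choice made after seeing the data, it was 0.977%, 1.22% and 0.878%. With 90% marker shares it was 1.29% in RARRES2-high, and as a mean over barcodes 0.888% in FOLR1-high. Members called in any pair, 22 as reported, numbered 34 at 1.5-fold, 8 at 3-fold, 13 when the interval bound had to pass 2-fold and 13 with 10 CPM added. ERBB2-high against RARRES2-high, 14 as reported, had 23 at 1.5-fold, 5 at 3-fold and 9 with 300 counts. ERBB2-high against FOLR1-high, 13 as reported, had 26, 4 and 7, with 5 by the bound and 5 with 10 CPM added. RARRES2-high against FOLR1-high, 8 as reported, had 19 and 4, with 5 by the bound and 4 with 10 CPM added. Transcript shares past the limit, 0 as reported, numbered 1 (HSPH1) with 90% markers and 3 at 10 points. Median scaling called 18 partners, 16 of them among the 20 reported. The DNAJC15 ratio of ERBB2-high over RARRES2-high was 75.5 from mean barcode shares. Apart from settings whose construction sets the count, the cause was not tested. No paired analysis was possible because each line was present as 1 culture in 1 library, and no replicate could be left out.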

Other observations

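A further group of members was too scarce for the ratio comparison, and the following were chosen after their values were seen. DNAJC12, a J protein that works with aromatic amino acid hydroxylases, had 76 counts in ERBB2-high, 1 in RARRES2-high and 11 in FOLR1-high barcodes, or 22.1, 0.296 and 2.44 CPM. DNAJA4 had 1, 35 and 13 counts, or 0.290, 10.4 and 2.88 CPM. HSPA12A, a distant HSP70 relative, had 26, 0 and 42 counts. DNAJB5 had 27, 4 and 12 counts and DNAJC22 had 22, 12 and 1.

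HSPBP1, an HSP70 exchange factor dropped by the name rule, was at 41.5, 48.5 and 23.7 CPM, and HSPBAP1 at 4.07, 2.96 and 1.55 CPM. The 208 barcodes with mixed markers gave 1.06% of their counts to the members, and Scrublet marked 37 of them. In RARRES2-high, 7 barcodes had at least 5 thinned HSPA5 counts. Their mean HSP90B1 count was 1.00 against 1.32 in the rest, and their mean DDIT3 count 1.00 against 0.108. DDIT3 ranked first of the 2942 entries there by its correlation with HSPA5, at 0.275, and at 0.0957 without the 2 barcodes with the most HSPA5 counts. These 7 had a median of 10281 counts before thinning against 6605 in the rest, and Scrublet marked 2 of them, the one with the most HSPA5 counts included. Whether the lines differ in this, and the part of depth and doublets, was not tested.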
